A study of Homo sapiens with 16 samples.

Results

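The angiomotin family comprises 3 genes, AMOT, AMOTL1 and AMOTL2, which are 3 of the 26229 genes listed in the deposited count table. They were chosen from their counts in the same 16 libraries that are described here, so their levels and differences are given as a description, without a test. The libraries came from 2 human lines, the epidermoid carcinoma line A431 and the immortalised keratinocyte line HaCaT (HaCat in the labels), both grown in DMEM with 10% FCS. Each line gave 1 library with a control siRNA (siCTRL), 3 with siRNA against YAP1 (siYAP), 1 with an empty expression vector and 3 with a vector for constitutively active YAP1 (YAP5SA, YAP 5SA in the sample titles). The siRNA cells carried no vector and the vector cells received no siRNA. The siRNA was given in a pair of transfections and RNA was taken 48 h after the second. The promoter of the vector, the length of its expression and whether the lines were single clones are not given in the sources used here. The spread between control cultures could not be measured, because each control is 1 library. The 3 libraries of a treated group are biological triplicates by the Materials and Methods, and the labels do not name separate cultures.

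Angiomotins are scaffold proteins of tight junctions and of the actin cytoskeleton in epithelial and endothelial cells. They bind the WW domains of YAP and TAZ through PPxY motifs and can hold them in the cytoplasm or at junctions, and they bind and activate the LATS kinases of the Hippo pathway. YAP and TAZ act in the nucleus with TEAD factors, and AMOTL2 is known as a transcriptional target of this complex, so that the inhibitor and its target form a feedback loop. AMOT, the founding member, was first described in endothelial cells as a protein that binds angiostatin, and it exists as a long and a short form. AMOTL1 (also named JEAP) and AMOTL2 (also named MASCOT) were found as junction proteins related to it.

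The start sites of the family are shown because the comparisons turn on a factor that acts through TEAD sites. RefSeq promoter windows (GRCh38.p14, 250 bases before to 50 after an annotated start) were matched by symbol for all 3 members, with 2 starts for AMOTL2 and 1 each for AMOT and AMOTL1. Each window was searched for GGAATG, the core of the TEAD site, and for its reverse complement CATTCC. Letters in capitals mark a match, which is a description of the sequence and not evidence of binding. All windows are written 5′ to 3′ on the strand of the gene.
AMOTL2 downstream start, chr3:134374398-134374697, minus strand: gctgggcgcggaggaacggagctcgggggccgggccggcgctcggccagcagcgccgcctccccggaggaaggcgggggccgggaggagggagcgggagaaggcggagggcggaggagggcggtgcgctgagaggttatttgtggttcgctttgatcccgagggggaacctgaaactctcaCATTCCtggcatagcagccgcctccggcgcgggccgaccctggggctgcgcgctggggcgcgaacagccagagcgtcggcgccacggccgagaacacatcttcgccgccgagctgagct
AMOTL2 upstream start, chr3:134375368-134375667, minus strand: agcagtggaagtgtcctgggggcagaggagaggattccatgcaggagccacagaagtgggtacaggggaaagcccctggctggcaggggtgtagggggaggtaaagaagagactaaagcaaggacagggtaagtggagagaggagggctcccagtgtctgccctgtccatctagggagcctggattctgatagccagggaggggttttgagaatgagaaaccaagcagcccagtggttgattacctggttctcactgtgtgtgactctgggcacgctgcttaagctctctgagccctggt
AMOTL1, chr11:94768106-94768405, plus strand: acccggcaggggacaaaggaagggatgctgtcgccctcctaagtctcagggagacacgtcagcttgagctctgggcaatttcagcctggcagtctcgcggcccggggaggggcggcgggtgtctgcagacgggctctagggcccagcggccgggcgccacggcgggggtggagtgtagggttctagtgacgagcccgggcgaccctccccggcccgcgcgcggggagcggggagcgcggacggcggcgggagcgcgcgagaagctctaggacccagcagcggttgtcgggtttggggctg
AMOT, chrX:112840782-112841081, minus strand: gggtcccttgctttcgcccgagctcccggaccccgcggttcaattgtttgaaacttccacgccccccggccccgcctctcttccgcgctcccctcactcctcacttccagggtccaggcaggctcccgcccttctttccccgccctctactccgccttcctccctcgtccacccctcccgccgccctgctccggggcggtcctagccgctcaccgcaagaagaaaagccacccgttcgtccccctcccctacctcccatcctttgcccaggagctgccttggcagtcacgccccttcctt
The downstream AMOTL2 window held 1 match, read as CATTCC, with its first base at position -69 from the start. These letters did not occur in the upstream AMOTL2 window, nor in those of AMOTL1 and AMOT. The motif was found in 14.0% of the 35116 promoter windows of the same length, and 16.7% of the 27305 genes with a window held it in at least 1. Of the 10 widely used YAP target genes considered here, 7 had a window and 6 of these held the motif in at least 1 window (CTGF, ANKRD1, AJUBA, NUAK2, AXL and TGFB2), whereas that of F3 did not.

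The libraries held 18115624 to 46791673 pairs assigned to genes. Levels are given as CPM, counts scaled to a fixed total of assigned pairs, on library sizes corrected by TMM factors. A count of 0 allows up to 3 counts, or 0.0631 to 0.164 CPM in these libraries, and this limit covers counting error only. YAP1 lay between 5.04 and 23.2 CPM in the siYAP libraries and between 94.3 and 254 CPM with siCTRL, and between 1495 and 22250 CPM with YAP5SA against 124 and 423 CPM with the empty vector. EGFR, which A431 cells are known to amplify, had 750 to 1358 CPM in A431 and 298 to 557 CPM in HaCaT libraries. All 6 squamous epithelial markers examined (KRT5, KRT14, KRT6A, TP63, CDH1 and DSG3) had at least 58.9 CPM in every library. Of the 4 endothelial markers TEK stayed at or below 0.345 CPM, whereas CDH5 reached 31.1 CPM in A431 and 51.8 CPM in HaCaT cells, both with siCTRL. The summed endothelial markers ranged from 1.52 to 59.2 CPM, and their part in the angiomotin levels was not tested. Among fibroblast and leukocyte markers, COL1A2, PDGFRB, THY1, PTPRC and CD3E were at or below 0.255 CPM, COL1A1 reached 5.69 CPM and CD68 reached 170 CPM.

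AMOT was detected in HaCaT cells alone. In A431 cells it had 0 counts in all 8 libraries, 0 of 222778446 assigned pairs in total. In HaCaT cells AMOT had 10.6 CPM with siCTRL (194 counts), 14.4, 17.4 and 17.9 CPM with siYAP, 6.37 CPM with the empty vector (200 counts) and 6.02, 5.23 and 7.57 CPM with YAP5SA. The lines did not overlap at any treatment. Set against the limit of 3 counts in the shallowest A431 library of the same treatment, the HaCaT level was 72.1-fold above that limit with siCTRL, 111-fold with siYAP, 46.2-fold with the empty vector and 48.6-fold with YAP5SA. These ratios leave out the error of the HaCaT level. No log2 fold change is given for AMOT in A431 cells, over both lines or between lines, because it would depend on the prior count. In these bulk libraries, fewer cells that express a gene and less RNA per cell cannot be told apart. AMOT passed the filter on low counts through its HaCaT libraries, so a difference between the lines was fixed by that filter. Of the 14673 genes tested, 89 were at 0 in every A431 library. Of the 9152 with a mean HaCaT level at or above the 10.7 CPM of AMOT, 12 were, or 0.131%. Among the closest protein-coding genes on the X chromosome in the RefSeq order, LHFPL1 and IL13RA2 were also at 0 in all 8 A431 libraries. In HaCaT cells their medians were 0 and 0.224 CPM. HTR2C, the next gene after AMOT, was at 0 in 3 A431 libraries, with a median of 0.076 CPM in A431 and 0 in HaCaT cells.

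AMOTL1 was higher in HaCaT than in A431 cells at every treatment. In A431 cells AMOTL1 had 133 CPM with siCTRL, 165, 138 and 162 CPM with siYAP, 129 CPM with the empty vector and 133, 124 and 118 CPM with YAP5SA. In HaCaT cells AMOTL1 had 427 CPM with siCTRL, 453, 487 and 508 CPM with siYAP, 341 CPM with the empty vector and 420.4, 400.4 and 381 CPM with YAP5SA. Thus the lowest HaCaT library, 341 CPM, lay above the highest A431 library, 165 CPM. Averaged over the 4 treatments the difference was 1.60 on the log2 scale (SE 0.07), or 3.04-fold.

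AMOTL2 showed a wide overlap between the lines. In A431 cells it had 127 CPM with siCTRL, 94.7, 100.2 and 108 CPM with siYAP, 84.0 CPM with the empty vector and 86.6, 134 and 115 CPM with YAP5SA. In HaCaT cells AMOTL2 had 155 CPM with siCTRL, 77.4, 70.8 and 78.8 CPM with siYAP, 89.5 CPM with the empty vector and 210.2, 207 and 241.5 CPM with YAP5SA. HaCaT cells were therefore above A431 cells with siCTRL and with YAP5SA and below them with siYAP. The mean difference over the 4 treatments was 0.23 (SE 0.10) on the log2 scale. With 1 treated library left out at a time it was 0.20 to 0.27.

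**Figure D1:**
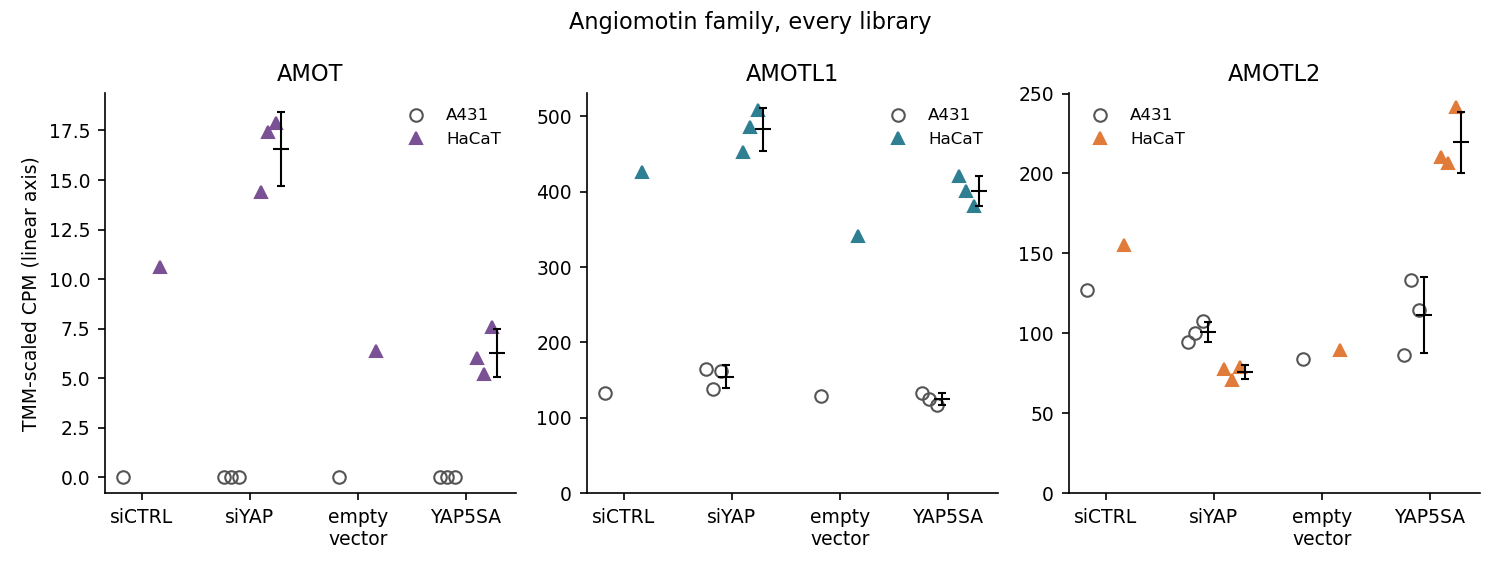
TMM-scaled CPM (linear axis, a scale for each gene) of AMOT, AMOTL1 and AMOTL2 in every library of A431 (open circles) and HaCaT cells (filled triangles) by treatment, with black bars for the mean ± SD of each group of 3 that had counts. AMOT lies at 0 in all 8 A431 libraries, AMOTL1 is separated by line throughout, and the 3 HaCaT libraries with YAP5SA hold the highest AMOTL2 levels.

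The order of the group levels differed between the members. For AMOTL2 the group mean was highest in HaCaT cells with YAP5SA, at 219 ± 19.2 CPM (SD, n = 3), followed by HaCaT siCTRL at 155 CPM and A431 siCTRL at 127 CPM. The gaps between these 3 exceeded the SD of the triplicate, although A431 siCTRL lay within the range of the A431 YAP5SA libraries. A431 YAP5SA (112 ± 23.7 CPM), A431 siYAP (101 ± 6.56 CPM), HaCaT empty vector and A431 empty vector came next, of which the first pair overlapped in its libraries. HaCaT siYAP was lowest, at 75.7 ± 4.30 CPM (n = 3). For AMOTL1 the order was HaCaT siYAP (483 ± 28.0 CPM), HaCaT siCTRL, HaCaT YAP5SA (401 ± 19.5 CPM), HaCaT empty vector, A431 siYAP (155 ± 14.8 CPM), A431 siCTRL, A431 empty vector and A431 YAP5SA (125 ± 7.68 CPM). The A431 siCTRL and empty vector libraries lay within the range of the A431 YAP5SA triplicate. For AMOT it was HaCaT siYAP (16.6 ± 1.88 CPM), HaCaT siCTRL, HaCaT empty vector and HaCaT YAP5SA (6.27 ± 1.2 CPM), of which the last pair did not differ beyond its spread.

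Levels of different genes were compared only per length of transcript, taking for each member the GENCODE v29 transcript with the longest coding sequence (7319 bases for AMOT, 8970 for AMOTL1 and 4521 for AMOTL2). On this scale AMOTL2 was the most abundant member in every A431 library and AMOTL1 in every HaCaT control and siYAP library. The order of the members can depend on the lengths taken, and no other transcripts were tried. AMOTL2 made up 65.5% of the family in A431 siCTRL and 53.3 to 59.1% with siYAP, against 41.2% in HaCaT siCTRL and 21.7 to 24.6% with siYAP. With YAP5SA its share in HaCaT cells was 49.4, 50.2 and 55.1%, and AMOT made up 0.784 to 3.29% of the family across the HaCaT libraries. The family as a whole had 32.9 to 43.4 CPM per kb in A431 cells and 58.7 to 96.9 CPM per kb in HaCaT cells, without overlap. Within HaCaT cells the family sum was 83.3 CPM per kb with siCTRL, 72.8 ± 3.53 with siYAP (n = 3), 58.7 with the empty vector and 94.1 ± 2.95 with YAP5SA (n = 3).

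The ratio of AMOTL2 to AMOTL1 within a library does not depend on how libraries are scaled. Per length, it was 0.721 in HaCaT siCTRL, 0.339, 0.289 and 0.307 with siYAP, 0.520 with the empty vector and 0.992, 1.02 and 1.26 with YAP5SA. The siYAP libraries lay below both HaCaT controls and the YAP5SA libraries above both. In A431 cells the ratio was 1.90 with siCTRL, 1.14, 1.44 and 1.32 with siYAP, 1.30 with the empty vector and 1.29, 2.13 and 1.94 with YAP5SA. Here YAP5SA replicate 1 stood at the level of the empty vector and the groups overlapped.

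**Figure D2:**
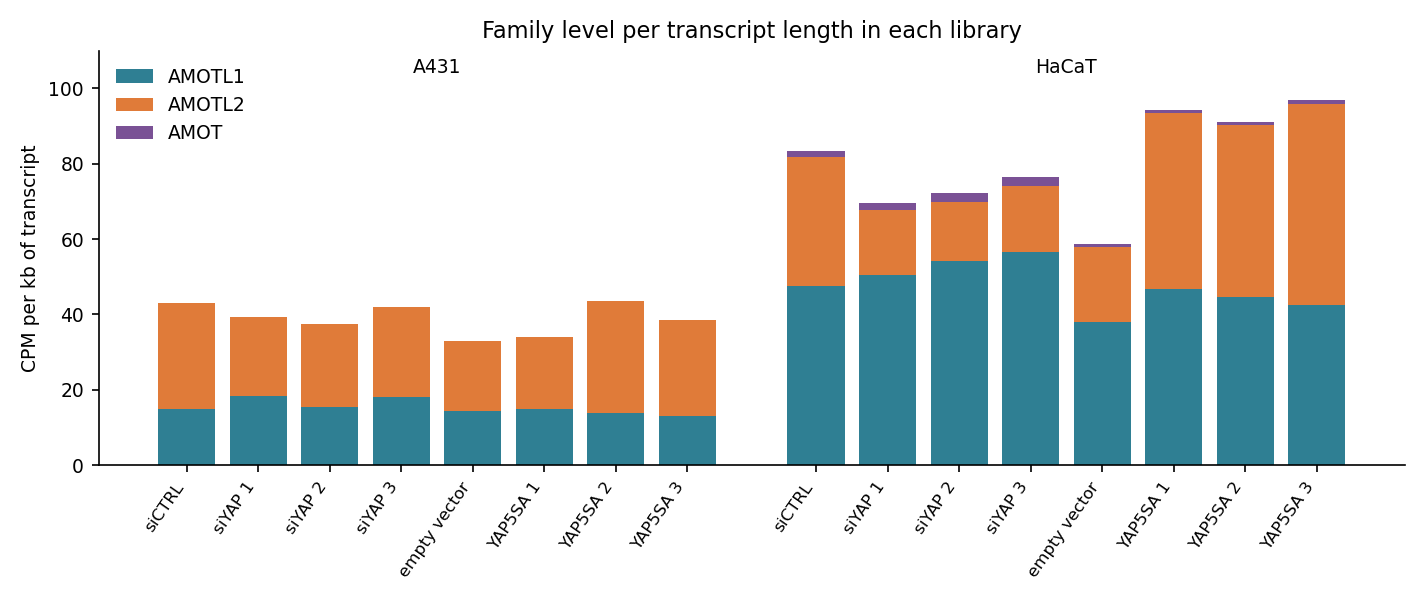
CPM per kb of transcript of AMOTL1, AMOTL2 and AMOT, stacked for each library, with A431 cells on the left and HaCaT cells on the right. The HaCaT bars are taller, between 58.7 and 96.9 CPM per kb, and their AMOTL2 part is smallest in the 3 siYAP and largest in the 3 YAP5SA libraries.

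Loss of YAP was examined by siYAP against siCTRL. AMOTL2 was lower in all 6 siYAP libraries than in the siCTRL library of the same line. In HaCaT cells it stood at 0.499, 0.456 and 0.508 of the siCTRL level, a log2 fold change of -1.03 (SE 0.18). In A431 cells it stood at 0.745, 0.789 and 0.848 of that level, a log2 fold change of -0.33 (SE 0.19). Over both lines the value was -0.68 (SE 0.13). AMOTL1 lay slightly above siCTRL in all 6 libraries, with log2 fold changes of 0.22 (SE 0.14) in A431 and 0.18 (SE 0.14) in HaCaT cells and 0.20 (SE 0.10) over both. AMOT in HaCaT cells lay above siCTRL in all 3 libraries, with a log2 fold change of 0.64 (SE 0.32).

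Gain of YAP activity was examined by YAP5SA against the empty vector. In HaCaT cells AMOTL2 stood at 2.35, 2.31 and 2.70 times the level of the empty vector, a log2 fold change of 1.29 (SE 0.21). In A431 cells AMOTL2 stood at 1.03, 1.59 and 1.36 times that level, a log2 fold change of 0.41 (SE 0.20). The A431 library nearest to the control, replicate 1, also had the lowest YAP1 level of its group (1495 CPM against 2940 and 3245 CPM). In HaCaT cells the order differed, as YAP5SA replicate 2 had the highest YAP1 level (22250 CPM against 7549 and 10070 CPM) but the lowest AMOTL2 level. The part of the YAP1 level in these values was not tested. Over both lines the value was 0.85 (SE 0.14). AMOTL1 had log2 fold changes of -0.04 (SE 0.14) in A431 and 0.23 (SE 0.14) in HaCaT cells and 0.09 (SE 0.10) over both. All 3 HaCaT libraries lay above the empty vector for AMOTL1, whereas 1 of the 3 A431 libraries did. AMOT in HaCaT cells had a log2 fold change of -0.02 (SE 0.31), with libraries on both sides of the control.

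The 2 controls of a line differed for AMOTL2, which bears on both comparisons. AMOTL2 was higher with siCTRL than with the empty vector, at 127 (exact 95% interval 122 to 132) against 84.0 CPM (80.2 to 88.0) in A431 cells and at 155 (149 to 161) against 89.5 CPM (86.2 to 92.8) in HaCaT cells. These intervals cover counting error only. For AMOTL1 the empty vector stood at -0.04 (SE 0.17) against siCTRL in A431 and -0.32 (SE 0.17) in HaCaT cells, and for AMOT at -0.73 (SE 0.38) in HaCaT cells, on the log2 scale. When both were used as controls, AMOTL2 with siYAP had log2 fold changes of -0.07 (SE 0.23) in A431 and -0.69 (SE 0.23) in HaCaT cells, and with YAP5SA of 0.08 (SE 0.23) and 0.84 (SE 0.24). Over both lines the values were -0.38 and 0.46. In HaCaT cells the 3 siYAP libraries lay below both controls and the 3 YAP5SA libraries above both, while in A431 cells all 3 siYAP libraries lay between the controls.

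YAP5SA against siYAP sets 3 libraries against 3, but a vector and an siRNA transfection differ along with YAP, and these cannot be told apart. AMOTL2 was higher with YAP5SA in HaCaT cells, 1.54 on the log2 scale (SE 0.14), without overlap of the groups, and 0.15 (SE 0.13) in A431 cells, where the groups overlapped. AMOTL1 was lower with YAP5SA without overlap in both lines, by -0.31 (SE 0.10) in A431 and -0.27 (SE 0.10) in HaCaT cells. AMOT was lower in HaCaT cells, -1.40 (SE 0.22), again without overlap. Differences were common in this comparison. Of all 14673 genes tested, 34.6% in A431 and 60.0% in HaCaT cells passed an FDR below 0.05 with a logCPM over 1. The share of all genes without overlap was not counted. With each arm first set against its own control, AMOTL2 had 2.33 (SE 0.28) in HaCaT and 0.74 (SE 0.27) in A431 cells, AMOTL1 0.05 (SE 0.19) and -0.27 (SE 0.19), and AMOT -0.67 (SE 0.44), so that the sign of AMOTL1 in HaCaT cells turned. The A431 value of AMOTL2 ran from -0.00 (SE 0.13) without YAP5SA replicate 2 to 0.30 (SE 0.11) without YAP5SA replicate 1. The summed squamous markers moved with the arms, at 2298 to 3271 CPM in the siRNA and 4020 to 4524 CPM in the vector libraries of A431 cells, and 1557 to 2624 and 3834 to 6828 CPM in those of HaCaT cells, and their part in these differences was not tested.

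**Figure D3:**
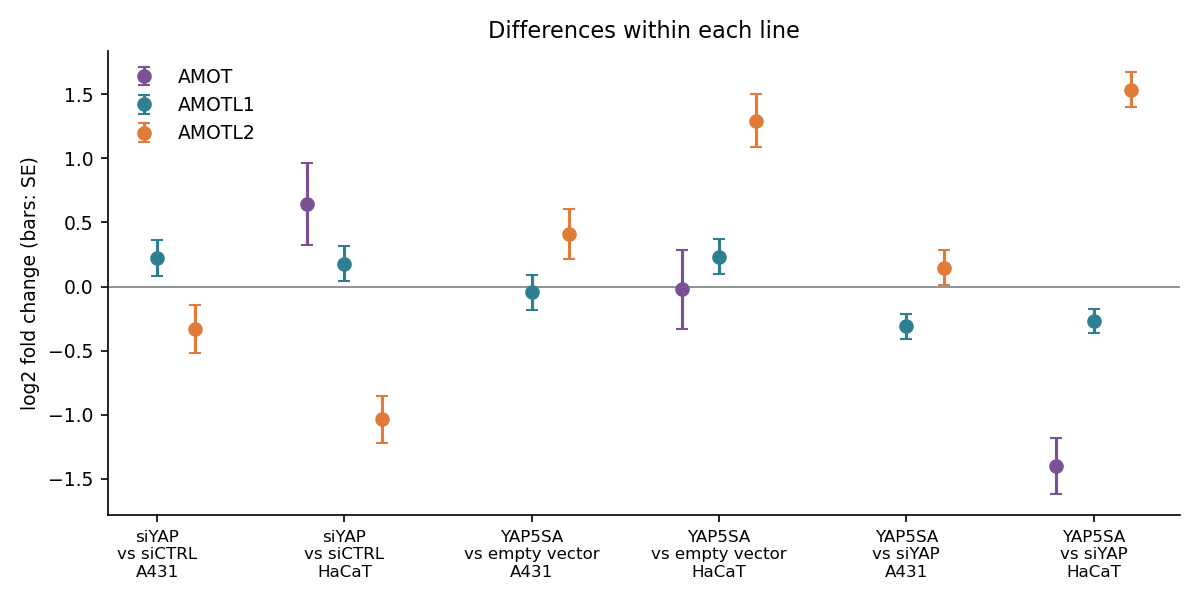
Log2 fold change with its standard error (bars) of AMOT, AMOTL1 and AMOTL2 in the 3 comparisons of each line, with AMOT drawn in HaCaT cells only. AMOTL2 runs from -1.03 with siYAP to 1.29 with YAP5SA in HaCaT cells, a wider span than its -0.33 to 0.41 in A431 cells.

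To compare the lines, the A431 effect was subtracted from the HaCaT effect. For AMOTL2 the difference was -0.70 (SE 0.27) for siYAP, where the effects were -1.03 and -0.33, and 0.88 (SE 0.27) for YAP5SA, where they were 1.29 and 0.41. For AMOTL1 it was -0.04 (SE 0.19) and 0.28 (SE 0.19). With 1 treated library left out at a time, the YAP5SA difference of AMOTL2 was lowest, 0.73 (SE 0.20), without A431 YAP5SA replicate 1 and highest, 1.03 (SE 0.24), without A431 YAP5SA replicate 2. The YAP5SA libraries of the lines also differed in YAP1 without overlap, at 1495 to 3245 CPM in A431 and 7549 to 22250 CPM in HaCaT cells. The part of this in the difference was not tested.

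The partners of the family were read from 6 lists of 45 genes, of which 44 were tested. The remaining gene, MAGI2, was too low, with 0 to 34 counts per library. Calls required an FDR below 0.05 together with a logCPM over 1, and beside each count stands the share of all genes tested that was called in the same comparison. With siYAP, edgeR called 8 of the 44 in A431 cells (1 higher, 7 lower, median log2 fold change -0.07 against 0.03 over all genes, 5.60% of which were called) and 8 in HaCaT cells (0 higher, 8 lower, median -0.09 against 0.03, background 5.67%). These include YAP1 itself, the target of the siRNA. With YAP5SA, 19 were called in HaCaT cells (16 higher, 3 lower, median 0.28 against 0.01, background 13.6%), again with YAP1, which the vector encodes. With HaCaT cells fitted alone 12 of these were called, and the calls lost include NF2, TEAD4, NEDD4L, RNF146 and ARHGEF17. In A431 cells 0 of 44 were called with YAP5SA, as was 0% of all genes, while 7 of the 44 and 828 of all genes had an unadjusted p under 0.05. DESeq2 called YAP1 there, and without A431 YAP5SA replicate 1 edgeR called YAP1 and F3. Over both lines 13 were called with siYAP (3 higher, 10 lower, background 13.0%) and 10 with YAP5SA (10 higher, 0 lower, background 2.04%), and the latter count was 6 without A431 YAP5SA replicate 2 or replicate 3. Between YAP5SA and siYAP, 15 were called in A431 (7 higher, 8 lower, background 34.6%) and 31 in HaCaT cells (23 higher, 8 lower, background 60.0%), and between the lines 35 were (22 higher in HaCaT, 13 lower, background 60.6%). With each arm set against its own control, 6 of the 7 higher and 0 of the 8 lower genes were still called in A431 cells, and 14 of the 23 higher and 1 of the 8 lower in HaCaT cells.

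The angiomotins join the Hippo kinases and their upstream regulators as YAP inhibitors. With siYAP, 3 of these 10 regulators were called in A431 cells (1 higher, 2 lower, background 5.60%) and 2 of 10 in HaCaT cells (0 higher, 2 lower, background 5.67%). MOB1A, the co-activator of the LATS kinases, fell in A431 cells, -0.77 (SE 0.12, edgeR FDR = 0.00375), and in HaCaT cells, -1.0 (SE 0.12, edgeR FDR = 0.000569). LATS2, a kinase that phosphorylates YAP, rose with siYAP in A431 cells, 0.69 (SE 0.18, edgeR FDR = 0.0430), and MOB1B fell there, -0.71 (SE 0.19, edgeR FDR = 0.0452). The call of LATS2 was lost without siYAP replicate 1 or 3, without a count filter and with both controls pooled, and that of MOB1B without any 1 of the 3 siYAP libraries and with both controls pooled. WWC1 (KIBRA), a scaffold that activates LATS, fell with siYAP in HaCaT cells, -0.57 (SE 0.15, edgeR FDR = 0.0445), a call that was lost without any 1 of the 3 siYAP libraries, without a count filter and with HaCaT cells fitted alone. With YAP5SA, 3 of 10 rose in HaCaT cells (background 13.6%), namely LATS2 at 1.01 (SE 0.18, edgeR FDR = 0.00668), WWC1 at 0.93 (SE 0.16, edgeR FDR = 0.00611) and NF2, which encodes Merlin, at 1.03 (SE 0.25, edgeR FDR = 0.0214). The remaining 7 of the list were not called, and the call of NF2 was lost with HaCaT cells fitted alone. Between YAP5SA and siYAP in HaCaT cells 7 of 10 were higher and 0 lower (background 60.0%), with WWC1 at 1.60 (SE 0.11, edgeR FDR = 6.41e-08) and MOB1A at 1.17 (SE 0.09, edgeR FDR = 1.34e-07). However, MOB1A had 148 CPM with the empty vector and 148 ± 8.49 CPM with YAP5SA (n = 3) in these cells. In A431 cells 2 of 10 were higher with YAP5SA than with siYAP and 2 lower (background 34.6%), the latter LATS2 at -0.53 (SE 0.12, edgeR FDR = 0.00471) and STK3 at -0.37 (SE 0.09, edgeR FDR = 0.00755). Against their own controls these stood at -0.37 (SE 0.25) for LATS2 and -0.07 (SE 0.19) for STK3 and were not called.

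Among YAP, TAZ and the TEAD factors, YAP1 was the 1 gene of 6 called with siYAP in A431 cells (-4.02, SE 0.46, edgeR FDR = 0.000761, background 5.60%). In HaCaT cells YAP1 (-3.52, SE 0.45, edgeR FDR = 0.000894) and TEAD4 (-0.82, SE 0.22, edgeR FDR = 0.0449) fell, the call of TEAD4 being lost without siYAP replicate 2 or 3, without a count filter and with HaCaT cells fitted alone. With YAP5SA in HaCaT cells YAP1 rose by 4.97 (SE 0.67, edgeR FDR = 0.00208), TEAD1 by 0.92 (SE 0.18, edgeR FDR = 0.00908) and TEAD4 by 0.97 (SE 0.22, edgeR FDR = 0.0163). The YAP1 count does not separate the vector from the endogenous transcript. Between YAP5SA and siYAP in HaCaT cells TEAD3 was lower, -0.80 (SE 0.15, edgeR FDR = 0.000448), as was WWTR1, which encodes TAZ, -0.35 (SE 0.11, edgeR FDR = 0.0132). Against their own controls TEAD3 stood at 0.58 (SE 0.31), with the sign turned, and WWTR1 at -0.42 (SE 0.22), neither called, and the call of WWTR1 was also lost without siYAP replicate 3 or YAP5SA replicate 2.

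The PDZ proteins of the junction and apical scaffold list bind angiomotins. Of its genes, LIN7C was the 1 of 7 called with siYAP in each line (background 5.60% in A431 and 5.67% in HaCaT cells). It fell in A431 cells by 1.17 on the log2 scale (SE 0.11, edgeR FDR = 0.000293) and in HaCaT cells by 1.35 (SE 0.11, edgeR FDR = 6.87e-05). With YAP5SA 0 of 7 were called in HaCaT cells (background 13.6%), with 2 at an unadjusted p under 0.05. There LIN7C had 238 CPM with the empty vector and 194 ± 3.2 CPM with YAP5SA (n = 3). Between YAP5SA and siYAP, INADL (PATJ), a scaffold of the Crumbs complex, was lower in A431 cells, -0.63 (SE 0.10, edgeR FDR = 0.000328), and in HaCaT cells, -1.26 (SE 0.10, edgeR FDR = 1.55e-07). MAGI3, another junction scaffold, was lower in HaCaT cells, -0.34 (SE 0.09, edgeR FDR = 0.00592). MPDZ, a multi-PDZ scaffold, was lower in A431 cells, -0.85 (SE 0.21, edgeR FDR = 0.00728). Against their own controls INADL stood at -0.19 (SE 0.19) in A431 and -0.40 (SE 0.19) in HaCaT cells and MPDZ at -0.71 (SE 0.42) in A431 cells, and these calls were lost, whereas that of MAGI3 was kept at -0.80 (SE 0.19, edgeR FDR = 0.0226) but lost without a count filter. Between the lines MPDZ was lower in HaCaT cells, -7.35 (SE 0.25, edgeR FDR = 5.75e-11), where AMOT and AMOTL1 were higher.

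The ubiquitin and tankyrase genes set the stability of the angiomotin proteins. Of these, the ubiquitin ligase NEDD4 was the 1 of 7 called with siYAP in each line (background 5.60% in A431 and 5.67% in HaCaT cells). NEDD4 had -1.33 (SE 0.17, edgeR FDR = 0.00161) in A431 and -0.92 (SE 0.18, edgeR FDR = 0.00897) in HaCaT cells. Both calls were lost with the 2 controls pooled. With YAP5SA in HaCaT cells NEDD4L rose by 1.27 (SE 0.34, edgeR FDR = 0.0282) and RNF146, the ligase that acts on tankyrase substrates, fell, -0.66 (SE 0.15, edgeR FDR = 0.0140). Both of these calls were lost with HaCaT cells fitted alone, and that of NEDD4L also with both controls pooled. In HaCaT cells NEDD4L had 74.9 CPM with the empty vector, 146 CPM with siCTRL and 181 ± 73.9 CPM with YAP5SA (n = 3). Between YAP5SA and siYAP the tankyrase TNKS was lower in both lines, at -0.83 (SE 0.11, edgeR FDR = 9.94e-05) in A431 and -1.16 (SE 0.11, edgeR FDR = 7.86e-07) in HaCaT cells, as was ITCH, at -0.50 (SE 0.11, edgeR FDR = 0.00398) and -0.39 (SE 0.11, edgeR FDR = 0.00727). In A431 cells RNF146 was also lower, -0.33 (SE 0.11, edgeR FDR = 0.0294), and in HaCaT cells, -0.62 (SE 0.11, edgeR FDR = 0.000199). Against their own controls all of these calls were lost, at -0.29 (SE 0.22) and -0.63 (SE 0.21) for TNKS in A431 and HaCaT cells, -0.18 (SE 0.23) and 0.10 (SE 0.23) for ITCH, and -0.09 (SE 0.22) and -0.64 (SE 0.22) for RNF146. In A431 cells RNF146 was also lost without siYAP replicate 1 or 2 or YAP5SA replicate 2 or 3. For the HaCaT minus A431 difference of the effects, edgeR called 0 of the 44 genes for siYAP (background 0.170%), with 6 at an unadjusted p under 0.05, and 0 for YAP5SA (background 0.0886%), with 15. DESeq2 called LATS2 for siYAP and 7 genes for YAP5SA.

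AMOTL2 was set beside 10 widely used YAP target genes, whose median log2 fold change with YAP5SA was 1.59 in HaCaT cells, against 0.01 over all genes. Over the 8 targets other than CTGF and ANKRD1, which had few or 0 counts in A431 cells, it was 1.2 in HaCaT and 0.28 in A431 cells, the latter against 0.02 over all genes. In HaCaT cells 8 of 10 rose, 0 fell and 2 were not called (background 13.6%). The matricellular gene CYR61 rose by 2.81 (SE 0.42, edgeR FDR = 0.00331) and CTGF by 2.98 (SE 0.80, edgeR FDR = 0.0283). The cardiac ankyrin repeat gene ANKRD1 rose by 4.62 (SE 0.61, edgeR FDR = 0.00183), the ligand TGFB2 by 2.06 (SE 0.24, edgeR FDR = 0.00102) and the receptor kinase AXL by 1.91 (SE 0.25, edgeR FDR = 0.00178). F3 (tissue factor) rose by 1.28 (SE 0.24, edgeR FDR = 0.00816), ARHGEF17 by 1.13 (SE 0.32, edgeR FDR = 0.0356) and CRIM1 by 0.70 (SE 0.16, edgeR FDR = 0.0155). The calls of CTGF and ARHGEF17 were lost without HaCaT YAP5SA replicate 3, and those of ARHGEF17, CRIM1 and TGFB2 with both controls pooled. AJUBA, at 0.36 (SE 0.24), and NUAK2, at 0.76 (SE 0.25), were not called. The 1.29 of AMOTL2 lay within the range of the called targets. Between YAP5SA and siYAP in HaCaT cells ANKRD1 was higher by 7.38 (SE 0.44, edgeR FDR = 1.85e-08), CYR61 by 5.08 (SE 0.30, edgeR FDR = 1.80e-08), F3 by 3.11 (SE 0.17, edgeR FDR = 9.91e-09) and, of the TEAD factors, TEAD4 by 2.35 (SE 0.16, edgeR FDR = 5.23e-08). Set against their own controls these values were smaller, though still called. They were 5.27 (SE 0.91) for ANKRD1, 3.38 (SE 0.57) for CYR61, 1.12 (SE 0.32) for F3 and 1.79 (SE 0.31) for TEAD4. In A431 cells AJUBA was higher by 1.29 (SE 0.17, edgeR FDR = 9.91e-05), TGFB2 was lower, -1.95 (SE 0.15, edgeR FDR = 2.94e-06), and LIN7C, which had fallen with siYAP, was higher by 0.97 (SE 0.08, edgeR FDR = 6.70e-06). TGFB2 had 112 CPM with siCTRL and 77.3 ± 9.89 CPM with siYAP (n = 3), but 16.9 CPM with the empty vector and 20.1 ± 1.02 CPM with YAP5SA (n = 3). Against their own controls its value was 0.79 (SE 0.30), with the sign turned and not called, while AJUBA (1.80, SE 0.34, edgeR FDR = 0.0287) and LIN7C (1.32, SE 0.17, edgeR FDR = 0.00800) were still called. In A431 cells LIN7C had 234 CPM with the empty vector and 261 ± 6.96 CPM with YAP5SA (n = 3), a difference that was not called.

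With siYAP 1 of the 10 targets was called in each line (background 5.67% in HaCaT and 5.60% in A431 cells). In HaCaT cells TGFB2 fell, at -1.39 (SE 0.21, edgeR FDR = 0.00239), a call that was lost with both controls pooled. Of the other HaCaT targets, none of which was called, 6 had values below 0, namely CYR61 (-0.57, SE 0.42), ANKRD1 (-0.66, SE 0.69), CTGF (-0.28, SE 0.85), AJUBA (-0.63, SE 0.22), CRIM1 (-0.11, SE 0.15) and ARHGEF17 (-0.04, SE 0.30), and 3 had values above 0, namely NUAK2 (0.69, SE 0.25), AXL (0.24, SE 0.22) and F3 (0.16, SE 0.23). In A431 cells AJUBA fell, at -1.21 (SE 0.22, edgeR FDR = 0.00898). There the values of CYR61 (-0.32, SE 0.35), F3 (-0.56, SE 0.22), TGFB2 (-0.54, SE 0.20), CRIM1 (-0.23, SE 0.15), AXL (-0.15, SE 0.22), ARHGEF17 (0.26, SE 0.31) and NUAK2 (0.81, SE 0.26) did not pass. With YAP5SA in A431 cells CYR61 (1.08, SE 0.38), F3 (0.81, SE 0.24), AJUBA (0.60, SE 0.24), AXL (0.30, SE 0.22), TGFB2 (0.25, SE 0.22), ARHGEF17 (0.12, SE 0.31), CRIM1 (-0.00, SE 0.15) and NUAK2 (-0.05, SE 0.25) were not called. CTGF had at most 0.300 CPM and ANKRD1 at most 1.14 CPM in any A431 library, with 1 count of ANKRD1 and 0 of CTGF in the empty vector, so no fold change is given for them there. The 2 controls differed for these genes as well: in HaCaT cells TGFB2 had -1.27 (SE 0.27) with the empty vector against siCTRL and F3 had 1.99 (SE 0.29), beside -0.79 (SE 0.24) for AMOTL2.

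**Figure D4:**
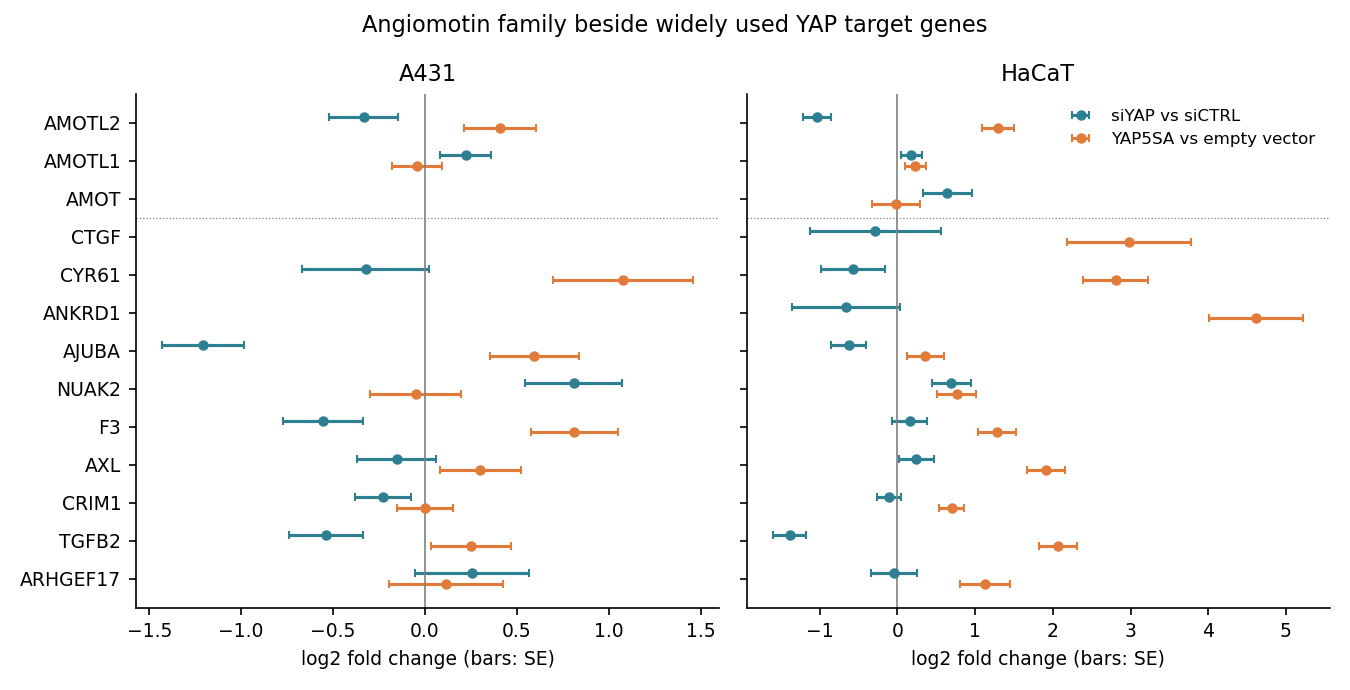
Log2 fold change with its standard error (bars) of the 3 angiomotins and of 10 widely used YAP target genes in A431 (left) and HaCaT cells (right, on a wider axis), for siYAP against siCTRL and YAP5SA against the empty vector. AMOT, CTGF and ANKRD1 are not drawn in A431 cells, where they had few or 0 counts. In HaCaT cells AMOTL2 and TGFB2 lie to the left of 0 with siYAP, at -1.03 and -1.39, and to the right with YAP5SA, at 1.29 and 2.06.

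The genes whose levels followed each member most closely were taken by the Pearson correlation of log2 CPM, centred within each line, over the 16 libraries and among 12239 other genes. The points share libraries, controls and treatments, so the coefficients are a description. Of the 5 genes closest to AMOTL2, 4 are named here: EMC1, a subunit of an ER membrane complex (r = 0.956), MED1, a Mediator subunit (0.952), the integrin ITGB2 (0.948) and ZC3H7B (0.937). Its coefficients with the 10 targets ran from -0.401 for NUAK2, 0.007 for ARHGEF17, 0.484 for AXL and 0.507 for AJUBA through 0.682 for TGFB2, 0.699 for CRIM1 and 0.790 for F3 to 0.844 for ANKRD1, 0.856 for CYR61 and 0.859 for CTGF. It was 0.700 with YAP1, -0.387 with AMOTL1 and -0.721 with AMOT. AMOTL1 was followed most closely by LIX1L (0.951), CLCN6 (0.940), BCORL1 (0.939), BAZ2A (0.937) and LOC100288069 (0.937). AMOT was followed by SLC6A2, the noradrenaline transporter (0.963), FAM102A (0.961), TENM4 (0.961), PIK3R2 (0.960) and FLJ23867 (0.958). For AMOT the shared variation comes from the 8 HaCaT libraries, since AMOT does not vary in A431 cells. Variation of the other gene within A431 cells lowers its coefficient with AMOT. Genes at or near 0 in A431 cells were therefore favoured by the measure. Of the 5 genes, SLC6A2 was at or below 0.098 CPM in every A431 library. In HaCaT cells it had 53.0 to 72.5 CPM with siYAP, 22.2 with siCTRL, 10.9 with the empty vector and 7.58 to 9.53 with YAP5SA. A shared order of groups with AMOT was favoured by the choice of SLC6A2 for its correlation with AMOT. TENM4 was also at 0 in A431 cells, whereas FAM102A, PIK3R2 and FLJ23867 had 24.0 to 56.3 CPM there. The choice of measure changed these lists. By Spearman correlation 1, 0 and 2 of the 5 genes of AMOT, AMOTL1 and AMOTL2 were kept, and without centring 0, 0 and 2 were.

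In GENCODE v29 the microRNA genes MIR4329 and MIR6827 lie within AMOT and AMOTL2 and were listed at 0 in every library, and the pseudogene RPL39P5 on the strand of AMOTL2 and the antisense genes AP000943.3 and AP002383.2 at AMOTL1 are not in the count table. Whether strand was used in counting is not given in the sources used here, so reads of AMOTL1 and its antisense genes cannot be told apart.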

How the data were processed

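RNA-seq of 16 libraries in 8 groups was deposited as 1 table. The authors cut 100 bp paired reads to 75 bp, used RSEM with bowtie2 on RefSeq models and deposited estimated counts per gene, unscaled and unfiltered, of which 82.3% of values are whole numbers. The labels' processing notes name RSEM 1.2.11 and hg19, and the Materials and Methods give another RSEM release. Expected counts of genes that share sequence are split by RSEM's model.

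Counts were rounded and tested with edgeR 4.0.16 (quasi-likelihood, TMM factors 0.9135 to 1.074, prior count 0.125, 8 residual degrees of freedom) in R 4.3.3, in 1 model of 8 groups over the 14673 genes whose mean exceeded 10 counts. Benjamini-Hochberg adjustment was over all genes of a comparison. A gene was called at FDR under 0.05 and logCPM above 1, and the percentage of all genes called is given as background. Standard errors are the log2 fold change divided by the square root of F. The spread behind the standard errors and FDRs comes from the treated triplicates, since each control is 1 library. It is assumed to hold for the control cultures, whose own variation was not measured. The test was checked on simulated data. Intervals of single libraries are exact binomial.

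Named partner genes are, in each comparison within a line, up to 6 called in each direction with the lowest FDR, and all 10 YAP targets. NF2, MOB1B, STK3, TEAD1, WWTR1 and NEDD4L fall outside that rule and were named after their values were seen. The members and lists were chosen with earlier results of these data known. Alternatives were DESeq2 1.42.0, RLE factors, other count filters, FDR alone, the likelihood ratio test, each line alone, pooled controls, own controls, libraries left out and a replicate block. GENCODE v29 gave transcript lengths and RefSeq GRCh38.p14 the promoters, both on a build other than that of the counts. Proteins were not analysed here. The results of 1 partner list and of 1 similar gene are not reported here.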

Additional observations from a re-analysis of the deposited data

How the results depend on the processing

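The 25 log2 fold changes of the 3 members were recomputed 272 times under the alternatives, and 256 of these moved by less than the spread between replicates. The other values came from the choice of control. With siCTRL and the empty vector as 2 controls, the siYAP value of AMOTL2 was -0.07 in A431 and -0.69 in HaCaT cells and -0.38 over both lines, and its YAP5SA value was 0.08, 0.84 and 0.46. Under the same pooling the siYAP value in HaCaT cells was 0.97 for AMOT and 0.33 for AMOTL1, the YAP5SA value was -0.43 and 0.06, and the difference between the lines for AMOTL1 was 0.09 for siYAP and 0.13 for YAP5SA. With each arm set against its own control, YAP5SA against siYAP gave AMOTL2 0.74 in A431 and 2.33 in HaCaT cells, AMOT -0.67 in HaCaT cells, and AMOTL1 in HaCaT cells 0.05 where it had been -0.27, a change of sign. Pooled controls called 5 partner and target genes for siYAP in A431 cells (8 before), 15 in HaCaT cells (8), 1 for YAP5SA in A431 cells (0) and 6 over both lines (10). Own controls called 6 in A431 (15) and 15 in HaCaT cells (31) between YAP5SA and siYAP, and HaCaT cells fitted alone called 12 with YAP5SA (19). In A431 cells with YAP5SA, 1 was called without a count filter, by the likelihood ratio test and by DESeq2, and leaving out a library gave 0 to 2. Leaving out a library gave 6 to 15 over both lines with YAP5SA. For the difference between the lines, 1 was called for siYAP by the likelihood ratio test and 1 by DESeq2, and for YAP5SA 2 with RLE factors, 2 without a count filter, 2 with more than 10 counts in every library, 4 by the likelihood ratio test, 7 by DESeq2 and 0 to 4 with a library left out. The cause of these changes was not tested. The filter of more than 10 counts in every library removed AMOT, which has no value there. Same-numbered siYAP and YAP5SA libraries had correlations of deviations of -0.0636 to 0.111 over 12240 genes, so the numbers do not pair the samples. A replicate block, possible only for YAP5SA against siYAP, called 16 partner and target genes in A431 (15 without it) and 30 in HaCaT cells (31), and left AMOTL1 in A431 cells at -0.30. With 1 control library per arm, small differences of AMOT, at 182 to 541 counts in HaCaT libraries, are the least precise.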
